A study of Homo sapiens with 3 samples.

Results

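The genes described here are the core of the apoptosis machinery: the BCL2 family, caspases, their inhibitors, and death receptors with their adaptors. They were chosen as a list of 35 gene symbols, by a rule that uses no measured value, though earlier results of these data were known when it was drawn up, and each was followed through every probe set that the array platform's annotation maps to that symbol alone. Of the 35 genes, 33 were on the array, among 19775 genes in all, with 106 probe sets between them. No probe set used here mapped to BIRC3 or RIPK1 alone, and these 2 were not analysed. The cells were HCT116, a human colorectal carcinoma line grown as a monolayer of tumour cells. They were infected with lentivirus carrying a scrambled short hairpin RNA (Scr_shRNA, 1 array), UHRF1 hairpin 2 (UHRF1_sh2, 1 array) or UHRF1 hairpin 5 (UHRF1_sh5, 1 array), and all 3 cultures were kept under puromycin for 6 days before RNA was taken. The control cells thus carried lentivirus, a hairpin and the drug as well.

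Apoptosis runs through 2 connected routes. In the mitochondrial route, BH3-only proteins such as BIM and BID neutralise the guardians BCL2, BCL-XL and MCL1 or activate BAK and BAX directly, which then open the outer membrane. Cytochrome c released from mitochondria binds APAF1 and switches on caspase-9, while SMAC (DIABLO) and HTRA2 relieve the block that XIAP places on caspases. In the extrinsic route, ligands such as TRAIL or TNF engage receptors whose death domains recruit FADD or TRADD and then caspase-8, and CFLAR (cFLIP) holds caspase-8 in check. Colorectal carcinoma cells carry both routes, and the TRAIL receptors have been much studied in them. UHRF1 recruits the maintenance methyltransferase to newly copied DNA, so its loss bears on CpG methylation; methylation itself was not measured on these arrays.

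Values are the deposited log2 levels, and a difference is hairpin minus control on that scale. Where a gene has several probe sets, its level is that of the brightest, and 24 of the genes have several. Each hairpin has 1 array and no replicate, which limits the precision of every value. UHRF1 transcript read 8.54 in the control, 6.20 with hairpin 2 and 6.67 with hairpin 5, below the control on both arrays labelled as depleted. Of the 8 colorectal epithelial markers, 7 were at the tested level; VIL1, a microvillus protein, was not (3.13). Of the 5 leukocyte markers on the array 0 were, of the 6 fibroblast markers 2 (COL1A1 and PDGFRB) and of the 4 endothelial markers 1 (PECAM1). The array medians were 3.002, 2.977 and 3.044, in the same order of arrays. A gene was tested when its mean over the arrays was at least 3.28, the 40th percentile of genes, and 29 of the 33 members were. BCL2A1, BMF, CASP10 and TNFSF10 lay under that level.

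None of the 29 tested members passed limma's test of the 2 hairpins against the control. The lowest unadjusted p was 0.0522, for TNFRSF21, and every adjusted p was 0.999 (limma, Benjamini-Hochberg over 11865 genes). Over all genes, 0% were called at an adjusted p of 0.05, and 2.33% (277 genes) had an unadjusted p under 0.05, against 0 of the members. The fit has 1 residual degree of freedom and takes the lone control to vary like the hairpin arrays, and an exact permutation of 3 arrays could not go below p = 0.333. The differences that follow are therefore descriptions of 3 arrays, and both hairpins' differences share the 1 control. At least 1.5-fold (0.58 on the log2 scale) with both hairpins in the same direction stood 0 members higher, against 0.759% of all genes, and 0 lower, against 1.59%.

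At a smaller distance the lower side held more of the members. Lower than the control by at least 0.3 with both hairpins were 5 of 29 (17.2%), against 7.50% of all genes tested: TNFRSF10A, TNFRSF1A, TNFRSF21, CFLAR and BCL2L1. With the mean of all probe sets of a gene in place of the brightest, 2 of 30 tested members were (TNFRSF1A and TNFRSF21; 6.67%), against 4.16% of all genes. Higher by at least 0.3 with both was 1 of 29 (3.45%), against 5.12% of all genes: BOK. With the mean of probe sets there were 0, against 3.39%, and after cyclic loess scaling 3 (BOK, FADD and TRADD, 10.3%), against 5.79%. With hairpin 2 alone 7 members were higher by that much (24.1%), against 19.0% of all genes, and 7 were lower (24.1%), against 13.2%. With hairpin 5 alone 1 member was higher (3.45%), against 13.8%, and 10 were lower (34.5%), against 25.6%. At any distance 14 members were lower with both hairpins, against 32.3% of all genes, 6 were higher, against 29.0%, and 9 went in opposite directions or were level, against 38.7%. The median difference of the members was −0.06 with hairpin 2 and −0.18 with hairpin 5, where all genes tested had medians of 0.03 and −0.06.

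**Figure D1:**
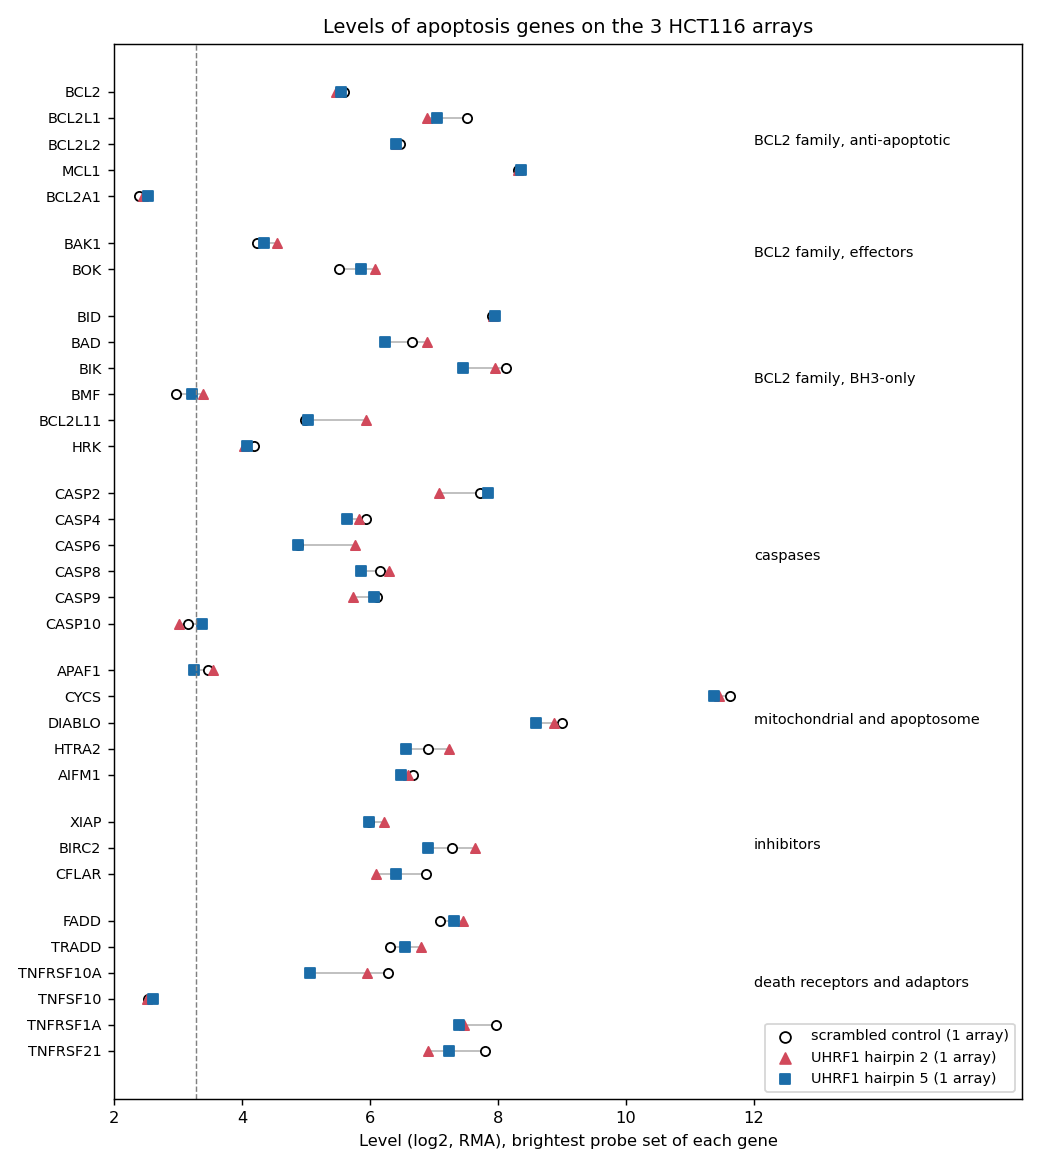
Level (log2) of the brightest probe set of each of the 33 measured genes on the 3 arrays, by role; open circles are the scrambled control, triangles hairpin 2 and squares hairpin 5, a grey bar spans the 3 values, and the dashed line marks the tested level of 3.28. TNFSF10 and BCL2A1 are left of the dashed line on every array, and the control point lies to the right of both hairpins for TNFRSF10A, TNFRSF1A, TNFRSF21, CFLAR and BCL2L1.

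The start regions of some of the genes that stood apart are shown because UHRF1 acts on CpG methylation and these differ in CpG content. They are RefSeq promoter windows (assembly GRCh38.p14) from 250 bases before to 50 after the 5′-most start listed, 5′ to 3′, with each CpG in capitals. Of the 35 genes, 29 had an entry. The windows are chr12:6342027-6342326 on the minus strand (TNFRSF1A), chr6:47309856-47310155 on the minus strand (TNFRSF21), chr2:201118466-201118765 on the plus strand (CFLAR), chr20:31723914-31724213 on the minus strand (BCL2L1), chr2:241558495-241558794 on the plus strand (BOK) and chr2:111120664-111120963 on the plus strand (BCL2L11).
TNFRSF1A: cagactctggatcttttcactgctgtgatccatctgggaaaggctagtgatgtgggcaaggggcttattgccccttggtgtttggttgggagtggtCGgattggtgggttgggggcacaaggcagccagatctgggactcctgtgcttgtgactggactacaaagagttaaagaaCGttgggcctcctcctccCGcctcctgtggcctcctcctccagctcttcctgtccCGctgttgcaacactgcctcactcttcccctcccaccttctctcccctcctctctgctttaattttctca
TNFRSF21: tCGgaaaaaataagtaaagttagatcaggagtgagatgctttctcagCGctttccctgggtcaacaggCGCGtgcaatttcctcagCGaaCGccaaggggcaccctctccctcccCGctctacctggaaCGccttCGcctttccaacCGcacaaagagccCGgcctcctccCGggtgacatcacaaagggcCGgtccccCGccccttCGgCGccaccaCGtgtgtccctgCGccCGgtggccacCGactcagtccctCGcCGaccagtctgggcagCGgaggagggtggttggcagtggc
CFLAR: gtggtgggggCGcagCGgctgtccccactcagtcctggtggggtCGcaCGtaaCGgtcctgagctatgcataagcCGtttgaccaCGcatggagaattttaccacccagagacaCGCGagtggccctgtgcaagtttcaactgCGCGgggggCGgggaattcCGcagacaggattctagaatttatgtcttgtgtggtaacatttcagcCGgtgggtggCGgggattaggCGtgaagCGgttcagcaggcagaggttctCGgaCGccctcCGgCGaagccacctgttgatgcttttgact
BCL2L1: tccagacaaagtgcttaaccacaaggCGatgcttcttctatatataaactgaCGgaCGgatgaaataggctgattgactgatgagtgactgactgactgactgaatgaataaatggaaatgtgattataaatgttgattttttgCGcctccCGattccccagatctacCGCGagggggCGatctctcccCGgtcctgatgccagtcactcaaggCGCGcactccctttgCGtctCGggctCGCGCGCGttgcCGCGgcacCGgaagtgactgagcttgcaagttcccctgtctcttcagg
BOK: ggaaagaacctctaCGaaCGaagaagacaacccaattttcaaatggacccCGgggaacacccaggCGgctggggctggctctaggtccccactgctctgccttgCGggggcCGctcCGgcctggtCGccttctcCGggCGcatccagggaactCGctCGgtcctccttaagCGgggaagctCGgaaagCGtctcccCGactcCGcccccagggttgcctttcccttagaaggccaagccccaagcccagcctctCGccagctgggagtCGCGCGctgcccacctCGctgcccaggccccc
BCL2L11: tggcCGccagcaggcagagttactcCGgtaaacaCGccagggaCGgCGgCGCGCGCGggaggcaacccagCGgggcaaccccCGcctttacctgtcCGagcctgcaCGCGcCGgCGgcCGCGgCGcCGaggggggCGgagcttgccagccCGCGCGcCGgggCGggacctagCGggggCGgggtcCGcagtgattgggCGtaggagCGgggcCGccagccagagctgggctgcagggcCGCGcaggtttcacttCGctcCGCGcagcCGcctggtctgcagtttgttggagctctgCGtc
The first 4 belong to genes lower with both hairpins, BOK to the gene higher with both, and BCL2L11 to the gene furthest above the control with hairpin 2 alone. BIK, TRADD, TNFRSF10A, BCL2L2, MCL1 and CASP10 have no entry in that table.

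The lower genes did not share one CpG density. TNFRSF1A had 4 CpG in its window and an observed-to-expected ratio of 0.17, whereas TNFRSF21 had 23 (0.78), CFLAR 21 (0.83) and BCL2L1 20 (0.99). BOK had 22 (0.68) and BCL2L11 39 (0.94). CASP2 and CASP6, at least 1.5-fold below and above the control with hairpin 2, had 35 (0.92) and 28 (0.73), and their windows are not shown. Over the 27305 genes with a window of this length the median was 13 CpG, and over the 29 members it was 23, from 2 in BCL2A1 to 42 in APAF1. A search on both strands for GGGCGG, the core bound by SP1, found it in 19 of the 29 (65.5%) against 44.5% of all windows; it can overlap a counted CpG, which it contains. TNFRSF1A and BCL2L1 held no such match and TNFRSF21, CFLAR and BOK 1 each. TGANTCA, the AP-1 site, was in 1 member, FADD, against 7.72% of all windows.

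The 3 death receptors among the members stood lower with both hairpins, where 32.3% of all genes were. Of others outside the members, TNFRSF10B was lower with both by its brightest probe set (−0.22 and −0.07 with hairpins 2 and 5). Averaged over its probe sets it was not, at 0.22 and −0.02. FAS differed by 0.53 and −0.38 (0.45 and 0.08 averaged over its probe sets). TNFRSF25 differed by 0.09 and 0.58 (0.22 and 0.36 averaged). The decoys TNFRSF10C and TNFRSF10D differed by −0.13 and 0.25 and by −0.23 and 0.24. These others were named after their values were seen. In bulk RNA, fewer cells carrying a transcript and less of it per cell cannot be told apart. TNFRSF21 (DR6), a death-domain receptor of the TNF receptor family, read 7.79 in the control, 6.91 with hairpin 2 and 7.24 with hairpin 5. Both hairpin arrays were below the control, with differences of −0.88 and −0.55 (1.84-fold and 1.46-fold), and a mean difference of −0.71 ± 0.24 (SD, n = 2 hairpins), the 243rd lowest of the 11865 genes. Its dimmer probe set gave the same order, 4.51, 4.0 and 4.15. The name of that probe set ends in _x_at, which marks probes that can match other transcripts.

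TNFRSF1A, the main receptor for TNF, read 7.97 in the control, 7.47 with hairpin 2 and 7.39 with hairpin 5. The hairpins lay close together and below the control, with a mean difference of −0.54 ± 0.06 (SD, n = 2 hairpins) and limma's unadjusted p at 0.0927 (adjusted p = 0.999). It has a single probe set, so the value cannot be set beside another.

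TNFRSF10A (DR4), a receptor for TRAIL, read 6.28 in the control, 5.96 with hairpin 2 and 5.06 with hairpin 5. Hairpin 5 was far below the control (2.33-fold), and hairpin 2 a little below it, at −0.32. TNFRSF10A was the 1 member of 29 at least 2-fold lower with hairpin 5 (3.45%), against 1.94% of all genes. It ranked 92nd from the lowest of all genes with that hairpin. Its second probe set read 5.26, 5.06 and 4.47, and its dimmest 4.51, 4.74 and 4.32. All 3 probe sets put hairpin 5 lowest, while with hairpin 2 the dimmest was above the control. Averaged over them, TNFRSF10A differed by −0.10 and −0.73.

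The ligand TRAIL (TNFSF10) was at the foot of the scale on every array: 2.53 in the control, 2.52 with hairpin 2 and 2.60 with hairpin 5. In the control this lay at the 22nd percentile of all probe sets, a level that may be background, and its other 2 probe sets ranged from 2.28 to 2.53. Some interferon-stimulated genes were high with hairpin 2 on these arrays (IFI27 at 3.81, 10.58 and 4.04 in the control, hairpin 2 and hairpin 5). TNFSF10 is known as an interferon-inducible gene. Its window, shown for that reason and picked after its values were seen, holds the interferon response core GAAANNGAA, searched on both strands, at 2 places, in capitals here (chr3:172523381-172523680, minus strand).
TNFSF10: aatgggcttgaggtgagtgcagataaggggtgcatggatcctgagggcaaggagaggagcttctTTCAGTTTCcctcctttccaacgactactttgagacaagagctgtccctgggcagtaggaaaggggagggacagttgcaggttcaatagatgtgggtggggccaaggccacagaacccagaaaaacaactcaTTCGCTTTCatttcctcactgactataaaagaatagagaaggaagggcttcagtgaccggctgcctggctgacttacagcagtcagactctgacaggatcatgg
That core was in 4 of the 29 member windows (TNFSF10, CASP8, BIRC2 and BCL2A1) and in 8.32% of all windows. The match is a run of letters and says nothing on binding.

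The adaptors of the receptors stood on the other side, higher with both hairpins, where 29.0% of all genes were. FADD, which links death receptors to caspase-8, read 7.09 in the control, 7.46 with hairpin 2 and 7.31 with hairpin 5. TRADD, the adaptor that TNFRSF1A recruits, read 6.31, 6.79 and 6.55. Both were above the control with both hairpins, by 0.38 and 0.23 for FADD and by 0.48 and 0.24 for TRADD, with means of 0.30 ± 0.11 and 0.36 ± 0.17 (SD, n = 2 hairpins) and limma's unadjusted p at 0.311 and 0.246. A second TRADD probe set (5.97, 6.43 and 5.96) was higher with hairpin 2 and level with hairpin 5.

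Among the inhibitors, CFLAR was lower with both hairpins and XIAP and BIRC2 were not. CFLAR, the caspase-8-like protein that lacks protease activity and blocks death receptor signalling, read 6.87 in the control, 6.09 with hairpin 2 and 6.41 with hairpin 5. Both hairpins were below the control, with differences of −0.78 and −0.46 (mean −0.62 ± 0.22, SD, n = 2 hairpins; limma's unadjusted p 0.077). It has 14 probe sets, 7 of them at the tested level. The second brightest read 6.27, 5.49 and 5.54. It was the 1 of 58 member probe sets at that level that was at least 1.5-fold lower with both hairpins. By their brightest probe sets 1.59% of all genes were, and CFLAR holds 7 of the 58.

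The dimmer CFLAR probe sets differed less. Of the 7 at the tested level 5 were lower with both hairpins and 2 were mixed, and the differences ran from −0.78 to −0.05 with hairpin 2 and from −0.73 to 0.23 with hairpin 5. As the mean over all 14 the difference was −0.11 and −0.13. All 7 carry names ending in _x_at, which marks probes that can match other transcripts, and without such probe sets CFLAR lay under the tested level.

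XIAP, which binds and blocks caspases directly, read 5.99 in the control, 6.22 with hairpin 2 and 5.98 with hairpin 5. Its 5 probe sets at the tested level ran from −0.07 to 0.42 with hairpin 2 and from −0.16 to 0.30 with hairpin 5. BIRC2 (cIAP1), a ubiquitin ligase of TNF receptor complexes, read 7.28, 7.64 and 6.90, and so was above the control with one hairpin and below it with the other.

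**Figure D2:**
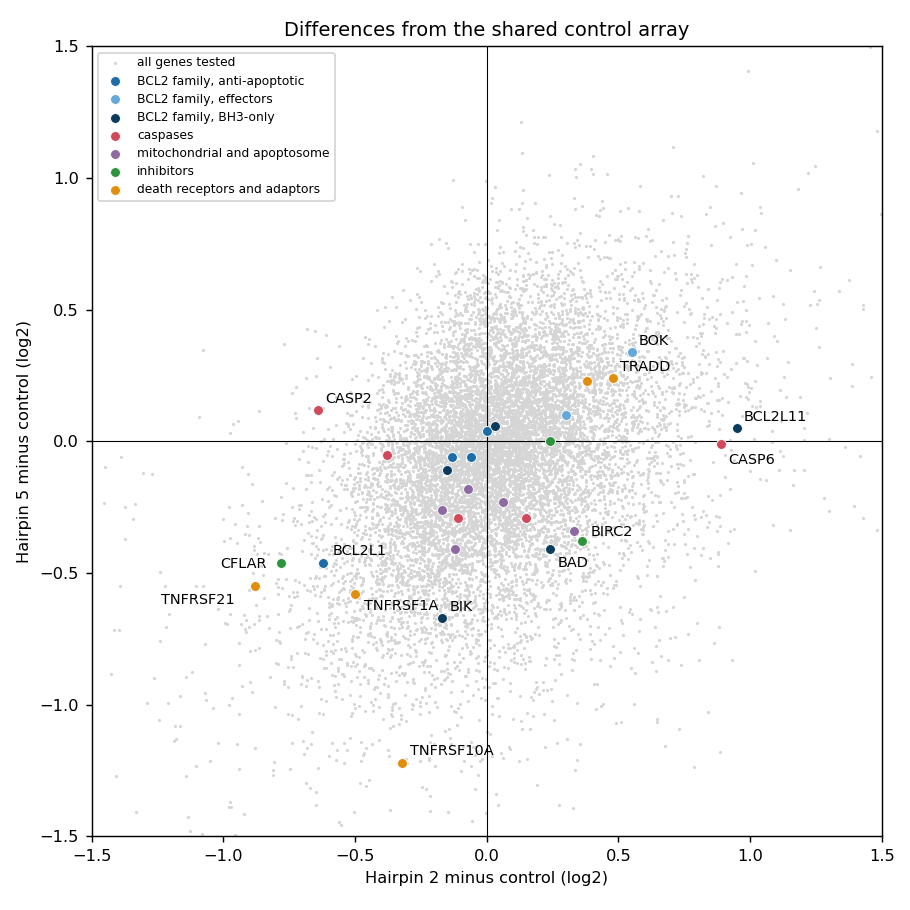
Difference from the control (log2) with hairpin 2 (horizontal) and hairpin 5 (vertical) for the 29 tested genes, coloured by role, over all 11865 genes tested in grey; 111 genes beyond 1.5 on either axis are not drawn, and both axes share the control array. The receptors, CFLAR and BCL2L1 lie at the lower left, BOK, TRADD and FADD in the upper right, BCL2L11 and CASP6 far right near the horizontal axis, and TNFRSF10A lowest at −1.22.

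In the BCL2 family, BCL-XL was the guardian that stood apart. BCL2L1, which encodes it, read 7.51 in the control, 6.89 with hairpin 2 and 7.05 with hairpin 5. Both hairpins were below the control, with differences of −0.62 and −0.46, a mean of −0.54 ± 0.11 (SD, n = 2 hairpins) and limma's unadjusted p at 0.0959. Its probe sets did not all show this: the second, nearly as bright, read 6.95, 6.67 and 6.96, and another, much dimmer, 3.25, 3.49 and 3.51. Averaged over its 4 probe sets, BCL2L1 differed by −0.21 and −0.02.

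The other guardians were near the control. MCL1, which shields cells from BIM and NOXA and turns over fast, read 8.32 in the control, 8.32 with hairpin 2 and 8.36 with hairpin 5. A second, dimmer MCL1 probe set whose name ends in _x_at read 5.28, 5.91 and 4.60, above the control with hairpin 2 and below it with hairpin 5, unlike the brightest. BCL2L2 (BCL-W) read 6.47, 6.41 and 6.40. BCL2 itself read 5.60, 5.46 and 5.54, while its second probe set rested at 3.62, 3.92 and 4.53, highest with hairpin 5. BCL2A1 was at 2.39, 2.45 and 2.53, with its control level at the 11.7th percentile of probe sets.

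The effectors of membrane opening among the members were both higher with both hairpins, where 29.0% of all genes were. BOK, a BAK-like protein, read 5.52 in the control, 6.07 with hairpin 2 and 5.86 with hairpin 5. The differences of 0.55 and 0.34 gave a mean of 0.45 ± 0.14 (SD, n = 2 hairpins; limma's unadjusted p 0.159), and it ranked 621st from the highest mean. A dimmer BOK probe set (3.19, 3.14 and 3.75) was higher with hairpin 5 alone. BAK1 read 4.24, 4.54 and 4.34 with its single probe set.

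BH3-only genes had no common direction. BCL2L11, which encodes BIM, read 4.99 in the control, 5.94 with hairpin 2 and 5.03 with hairpin 5. It was 1.94-fold above the control with hairpin 2 and level with it with hairpin 5, and it ranked 166th from the highest of all genes with hairpin 2. The 3 further probe sets at the tested level did not show it: the second brightest read 4.33, 4.11 and 4.24, and averaging its 7 probe sets gave BCL2L11 differences of 0.21 and −0.03.

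BIK, a BH3-only protein of the endoplasmic reticulum, read 8.13 in the control, 7.96 with hairpin 2 and 7.46 with hairpin 5. Hairpin 5 was the lowest, 1.59-fold below the control, and the gene has 1 probe set. BAD, which binds BCL-XL when unphosphorylated, read 6.65, 6.89 and 6.24. It was above the control with hairpin 2 and below it with hairpin 5, and its second probe set did the same more widely (5.53, 6.11 and 4.57), but its dimmest (3.48, 3.81 and 3.91) was above the control with both.

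BID, which caspase-8 cleaves to connect both routes, read 7.90 in the control, 7.92 with hairpin 2 and 7.96 with hairpin 5. Its second probe set read 5.50, 6.24 and 5.85 and another 4.66, 4.65 and 4.29, so its probe sets disagreed beyond the brightest. HRK read 4.18, 4.03 and 4.07. BMF, under the tested level, read 2.97, 3.39 and 3.22. Of these, HRK was slightly below the control with both hairpins and BMF above it, at a level too low to be tested.

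**Figure D3:**
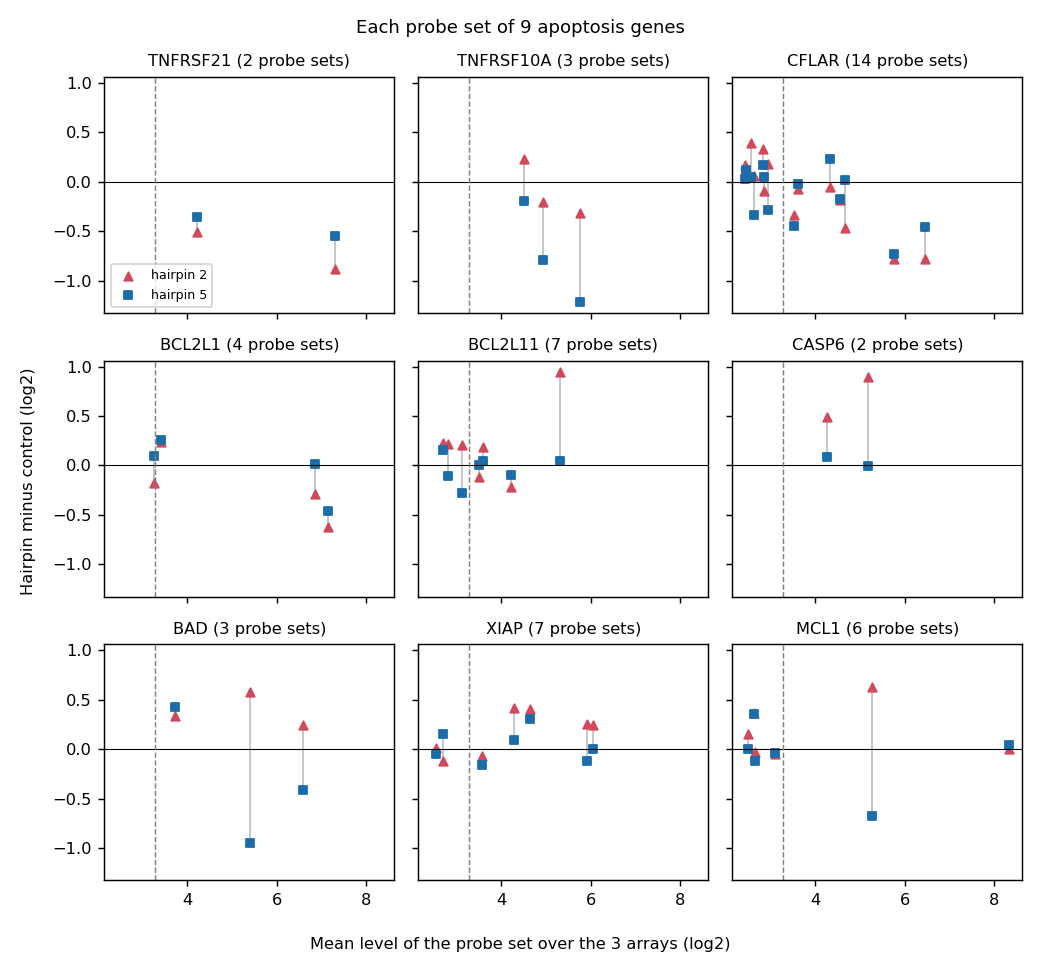
Difference from the control (log2) of every probe set of 9 of the genes against its mean level over the arrays (log2), with triangles for hairpin 2, squares for hairpin 5, a grey line joining the pair and a dashed line at the tested level of 3.28. Both TNFRSF21 probe sets lie below 0 with both hairpins and both CASP6 probe sets well above 0 with hairpin 2, whereas the other 6 BCL2L11 probe sets lie between −0.28 and 0.23.

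Caspases showed single-hairpin differences. CASP6, an executioner caspase that cleaves lamins, read 4.88 in the control, 5.76 with hairpin 2 and 4.87 with hairpin 5. Hairpin 2 was 1.85-fold above the control and hairpin 5 level with it. The second CASP6 probe set, whose name ends in _x_at (4.08, 4.57 and 4.16), was also highest with hairpin 2, with hairpin 5 slightly above the control. CASP2, the caspase of the PIDD complex, read 7.72, 7.08 and 7.84. Here hairpin 2 was the low array, 1.56-fold below the control, with hairpin 5 slightly above it. The other 6 CASP2 probe sets lay under the tested level, so 1 probe set carries this value.

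With hairpin 2 the other caspases, CASP8, CASP9, CASP4 and CASP10, were closer to the control than CASP6 and CASP2. CASP8, the initiator of the death receptor route, read 6.15 in the control, 6.30 with hairpin 2 and 5.86 with hairpin 5. CASP9, the initiator that APAF1 activates, read 6.11 in the control, 5.73 with hairpin 2 and 6.06 with hairpin 5. CASP4, an inflammatory caspase that senses lipopolysaccharide, read 5.94, 5.83 and 5.64. CASP10, a relative of CASP8, was under the tested level at 3.16, 3.02 and 3.37.

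The mitochondrial proteins released or used during cell death stood lower with hairpin 5 in all 5 genes by their brightest probe sets, where 57.0% of all genes tested were lower with that hairpin, with differences from −0.41 to −0.18, and within −0.17 to 0.33 of the control with hairpin 2. CYCS, cytochrome c, read 11.62 in the control, 11.45 with hairpin 2 and 11.37 with hairpin 5. DIABLO read 9.0, 8.88 and 8.60, and AIFM1, a flavoprotein needed for respiratory complex I assembly, 6.67, 6.6 and 6.49. All 3 had the order control, hairpin 2, hairpin 5 from the top.

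HTRA2, a mitochondrial serine protease, read 6.90 in the control, 7.23 with hairpin 2 and 6.56 with hairpin 5. Its second probe set (5.69, 6.12 and 5.98) was above the control with both, and the average of the pair was −0.03 with hairpin 5. APAF1, the scaffold of the apoptosome, read 3.47, 3.54 and 3.25, close to the level under which genes were not tested, and −0.01 with hairpin 5 averaged over its probe sets. The shift with hairpin 5 is to be read beside that of all genes, whose median with hairpin 5 was −0.06.

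Counted by hairpin, 2 of 29 members (BCL2L11 and CASP6) exceeded the control by at least 1.5-fold with hairpin 2, against 5.93% of all genes, and 4 were lower (BCL2L1, CASP2, CFLAR and TNFRSF21; 13.8%), against 3.14%. With hairpin 5, 0 were higher, against 2.84%, and 2 were lower (BIK and TNFRSF10A; 6.9%), against 9.79%. Hairpin 2 exceeded hairpin 5 by at least 1.5-fold in 6 members (20.7%; BAD, BCL2L11, BIRC2, CASP6, HTRA2 and TNFRSF10A), against 12.1% of all genes, a comparison that does not use the control. Hairpin 5 exceeded hairpin 2 in 1, CASP2 (3.45%), against 2.65%. After cyclic loess scaling 3 of the 6 were left, BCL2L11, CASP6 and TNFRSF10A. The share of all genes is given for the main scaling only, so these 3 are not read as a result about the members.

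Some interferon-stimulated genes were high on the hairpin 2 array. Of 12 interferon-linked death genes tested, 4 were at least 1.5-fold higher with hairpin 2, against 5.93% of all genes. Of the list of interferon-linked death genes, IFI6 read 5.90 in the control, 11.63 with hairpin 2 and 6.37 with hairpin 5, and the kinase EIF2AK2 (PKR) 6.59, 8.45 and 6.45. XAF1, an antagonist of XIAP, read 2.91, 4.80 and 2.50 and reached the tested level through hairpin 2 only. Averaged over their probe sets, EIF2AK2 differed by 0.91 and XAF1 by 0.60 with hairpin 2, and XAF1 was then under the tested level. The members on that list, TNFSF10, CASP4 and BAK1, differed with hairpin 2 by −0.01, −0.11 and 0.30. Whether the interferon response has a part in the hairpin 2 values of BCL2L11 or CASP6 was not tested.

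Other genes of apoptosis, from a list of 52 of which 48 were on the array and 35 tested, included 0 that passed limma over all genes, in either direction, and 0 with an unadjusted p under 0.05. At least 1.5-fold from the control with both hairpins were 0 of them, and at any distance 15 were higher with both (29.0% of all genes were), 8 lower (32.3% of all genes) and 12 mixed (38.7% of all genes), with medians of 0.09 and 0.06. BAX, the partner of BAK, read 6.45 in the control, 7.02 with hairpin 2 and 6.57 with hairpin 5. The TRAIL receptor TNFRSF10B read 8.62, 8.40 and 8.55, and the decoy receptor TNFRSF10D 6.73, 6.50 and 6.96, so TNFRSF10A with hairpin 5 was further from the control than its relatives. PMAIP1 (NOXA), a BH3-only protein that targets MCL1, read 8.46, 7.91 and 7.78, below the control with both hairpins, and BNIP3L 6.15, 7.08 and 6.43. These examples were chosen after their values were seen.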

How the data were processed

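RNA from 3 HCT116 cultures was measured on 1 Affymetrix array each. The deposited values are on a log2 scale, a base read from their range. The submitters' processing notes name RMA and Affymetrix Expression Console; versions and settings are not given in the sources used here. The platform annotation named 41091 of 54613 probe sets with 1 gene, 1801 with several, which were not used, and left 11721 unnamed.

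Each gene took its probe set with the highest mean. Genes whose mean reached the 40th percentile were tested with limma 3.58.1 (R 4.3.3), lmFit and eBayes, with both hairpins as 2 replicates against 1 control, and p-values were adjusted by the Benjamini-Hochberg method over 11865 genes. The labels do not say whether each culture was repeated, so p-values measure only the spread between these arrays. The script was tested on simulated data. The members and lists were chosen with earlier results of these data known. Members at least 1.5-fold from the control with either hairpin, or at least 0.3 from it the same way with both, were described on every array. Other listed genes were named when at least 1.5-fold from the control with both hairpins or 2-fold with 1, and exceptions are stated. Alternatives covered the scaling, the filter, the choice of probe set, the fold and each hairpin left out.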

Additional observations from a re-analysis of the deposited data

How the results depend on the processing

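With an intensity trend in eBayes, 1 gene of all tested passed the adjusted threshold, against 0 without it; none of the members did, also when each probe set was tested alone. Members at least 1.5-fold higher with both hairpins were 0. They were 0 without hairpin 2, against 2.84% of all genes, 2 without hairpin 5, against 5.93%, and 1 at a smaller fold (0.32 on the log2 scale). Members lower with both were 0, but 1 (TNFRSF21) with arrays centred on their medians, 2 to 4 when one hairpin was left out and 4 at the smaller fold (BCL2L1, CFLAR, TNFRSF1A and TNFRSF21). Without hairpin 2 the 2 were BIK and TNFRSF10A, against 9.79% of all genes. Without hairpin 5 the 4 were BCL2L1, CASP2, CFLAR and TNFRSF21, against 3.14%. A lone hairpin counts as both. The median member difference of −0.08 ran from −0.18 without hairpin 2 to −0.06 without hairpin 5, and was −0.02 with the mean of probe sets. Members at least 0.3 lower with both hairpins went from 5 to 2 with the mean of probe sets, against 4.16% of all genes. They were 4 with arrays centred on their medians, when TNFRSF10A dropped out, against 7.37%. Without probe sets ending in _x_at they were 4, when CFLAR dropped out, against 7.71%. They were 10 without hairpin 2, against 25.6%, and 7 without hairpin 5, against 13.2%. Members at least 0.3 higher with both went from 1 to 0 with the mean of probe sets, against 3.39% of all genes, and to 3 after cyclic loess, against 5.79%. They were 1 without hairpin 2, against 13.8%, and 7 without hairpin 5, against 19.0%. The alternatives for these 2 counts were chosen after seeing the data. Members higher with hairpin 2 than hairpin 5 went from 6 to 3 after cyclic loess and 0 at 2-fold. Members lower with hairpin 2 went from 1 to 0 with the mean of probe sets, 3 at the smaller fold and 0 at 2-fold. The cause of these moves was not tested, beyond the fold or array that the setting itself changes. With the mean of all probe sets 9 of 29 members moved by more than the spread between hairpins, with loess 3 and with centring 1. These counts depend on that spread as well as on the size of the move. BCL2L11 went from 0.50 to 0.09 with the mean of probe sets and was not counted (SD 0.64). BCL2L2 went from −0.06 to −0.07 with centring and was counted (SD 0.01). No member was called at 1.5-fold with both hairpins, so there was no called value that could reverse. Near 0 the sign depended on the scaling: loess turned BCL2, BCL2L2, CASP6, CASP9 and XIAP with hairpin 5 and BID with hairpin 2, and centring turned MCL1. All genes had medians of 0.00 and −0.01 after loess and 0.05 and −0.10 after centring; the members' medians of −0.06 and −0.18 became −0.12 and −0.14 after loess, when 11 rather than 14 were lower with both, and −0.03 and −0.23 after centring. Counts in this paragraph without a share of all genes beside them are not read as results about the members. No paired analysis was possible because there is 1 control array. The 3 arrays limit every value, and levels under 3.28 may be background.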

Other observations

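Among other death genes, those of the integrated stress response held 2 that were well below the control with both hairpins. Of 9 apoptosis genes under ATF4, the transcription factor of the integrated stress response, 8 were tested; 6 were lower than the control with both hairpins (32.3% of all genes were), 1 was higher (29.0% of all genes) and 1 was mixed, and 2 were at least 1.5-fold lower with both (1.59% of all genes). These were DDIT3 (CHOP), which read 8.60 in the control, 7.23 with hairpin 2 and 6.56 with hairpin 5, and TRIB3, a pseudokinase induced with it, at 8.34, 6.56 and 6.58. Both had an unadjusted p under 0.05 in limma, and neither passed after adjustment (adjusted p = 0.999). The list's medians were −0.28 and −0.33, against 0.03 and −0.06 for all genes, and PMAIP1, TNFRSF10B and BCL2L11 belong to it. These counts use the brightest probe sets, and averaged over its probe sets TNFRSF10B differed by 0.22 and −0.02.

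Of 14 p53-linked death genes 13 were tested, 8 higher with both hairpins (29.0% of all genes were), 2 lower (32.3% of all genes) and 3 mixed (38.7% of all genes), with medians of 0.11 and 0.12. Of 15 interferon-linked genes 12 were tested, 5 higher with both, 1 lower and 6 mixed, against the same shares of all genes, with medians of 0.44 with hairpin 2 and 0.02 with hairpin 5, and 4 were at least 1.5-fold higher with hairpin 2 (5.93% of all genes): IFI27, IFI6, EIF2AK2 and XAF1, which reached the tested level through hairpin 2 only. Of 10 NF-kB-linked genes 5 were tested, and all of these but NFKBIA are members. Of the 5, 1 was higher with both, 2 were lower and 2 mixed, beside the same shares of all genes. The list's medians were 0.24 with hairpin 2 and −0.38 with hairpin 5. At least 1.5-fold lower with hairpin 2 were 2 of them (3.14% of all genes). None of the genes on these 3 lists had an unadjusted p under 0.05 in limma or passed after adjustment.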
